A study of Mus musculus with 6 samples.

Results

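The 10 genes described are the keratins Krt8, Krt18, Krt19, Krt80 and Krt7 and the other intermediate filament genes Des, Vim, Synm, Nes and Lmna, in hearts of mice with a germline knockout of Rbpms and in wildtype hearts. They were found by symbol, and all 10 were among the 20893 genes of the deposited table and among the 14974 that were tested. The genes were selected on earlier results from these same libraries, with their knockout and wildtype values known when the list was drawn up. Fold changes and calls of the 10 genes are therefore a description of this comparison and not independent evidence for it.

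The data are stranded mRNA libraries of heart, 3 from Rbpms knockout hearts (labelled R1KO) and 3 from wildtype hearts, all on the C57BL6/J background. Rbpms encodes an RNA-binding protein that is abundant in cardiac and smooth muscle. The series title calls the hearts embryonic, while the design text calls them neonatal and the controls littermates, so the stage was not resolved. The labels and the design text name neither the deleted part of Rbpms nor the animal behind each library. The p-values measure the spread between these libraries. Knockout replicate 3 and wildtype replicate 1 differed in sex from the rest of their groups by Xist and Ddx3y (below). Neither group is therefore made only of repeats of the same animal. The spread between the remaining libraries of a group may be technical.

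Intermediate filaments are the rope-like filament system of animal cells, beside actin and microtubules. Keratins are obligate pairs of a type I and a type II chain, and simple epithelia, including the mesothelial layer that covers the heart, carry Krt8 and Krt18 with Krt7 and Krt19. Cardiomyocytes are built around desmin, which ties Z-discs to each other, to intercalated discs and to the nucleus. Vimentin fills fibroblasts and endothelial cells, and the lamins line the inside of the nuclear envelope.

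A deposited value, called the value here, is a gene's read number after scaling by library and rounding. Undoing the scaling gave 4163230 to 5805674 reads a library. Rbpms stood at 375, 340 and 507 in the knockout libraries, against 1182, 1176 and 1317 in the wildtype libraries. Knockout replicate 3 stood apart on the first principal component, at -48.3 against -9.7 to 20.7 in the other 5 libraries. It expressed Xist, as did wildtype replicate 1, at 1763 and 1770, and the other 4 libraries expressed the Y-linked gene Ddx3y. It also held the lowest value of all libraries for 11 of 19 tested epicardial and mesothelial markers.

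Of the 10 genes, 2 rose and 0 fell in knockout hearts. A call was an adjusted p under 0.05 from limma, fitted to log2(value + 1) and adjusted by Benjamini-Hochberg over all genes tested. The 2 called genes were the type II keratins Krt8 and Krt80. Over all tested genes 0.942% were called, 0.508% higher and 0.434% lower in knockout hearts. An unadjusted p under 0.05 was reached by 5 of the 10 genes and by 16.4% of all tested genes. That 16.4% is the share to set beside such counts in the lists below. Of the calls over all genes 53.9% were higher, and 42.0% were after rescaling to equal totals. In 5 of the 10 genes (Krt8, Krt18, Krt80, Synm and Lmna) every knockout library lay above every wildtype library, which held for 11.0% of all tested genes, and in 0 of the 10 every knockout library lay below, against 10.9%. The median log2 fold change was 0.11 over the 10 genes and 0.00 over all tested genes. Nothing is read from these shares, since this comparison was known when the genes were listed. Alternatives moved both counts. Krt8 and Krt80 were called with a pseudocount of 0.5 or 5, a minimum mean value of 20, equal totals, median-of-ratios rescaling, quantile normalization and without knockout replicate 2, where 0.788%, 0.982%, 0.655%, 0.668%, 0.861%, 0.721% and 3.41% of all genes were called. With no filter on low values, a term for library sex, or neither library with Xist, 3 of the 10 were called, against 1.04%, 1.49% and 1.71% of all genes. Without knockout replicate 3 it was 4, against 4.86%. Of the 10 genes 1 was called without trend and robust moderation, by voom on values, by voom on recovered reads and with a replicate block, against 0.16%, 0.481%, 0.488% and 0.154%. It was 0 without knockout replicate 1 and without wildtype replicate 1, 2 or 3, against 0.0401%, 0.02%, 0.0% and 0.0%. In those fits 4 or 5 of the 10 had an unadjusted p under 0.05, as had 1911, 1477, 2176 and 1852 of all 14974 genes. Bulk libraries cannot tell more cells of a type apart from more RNA per cell.

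**Figure D1:**
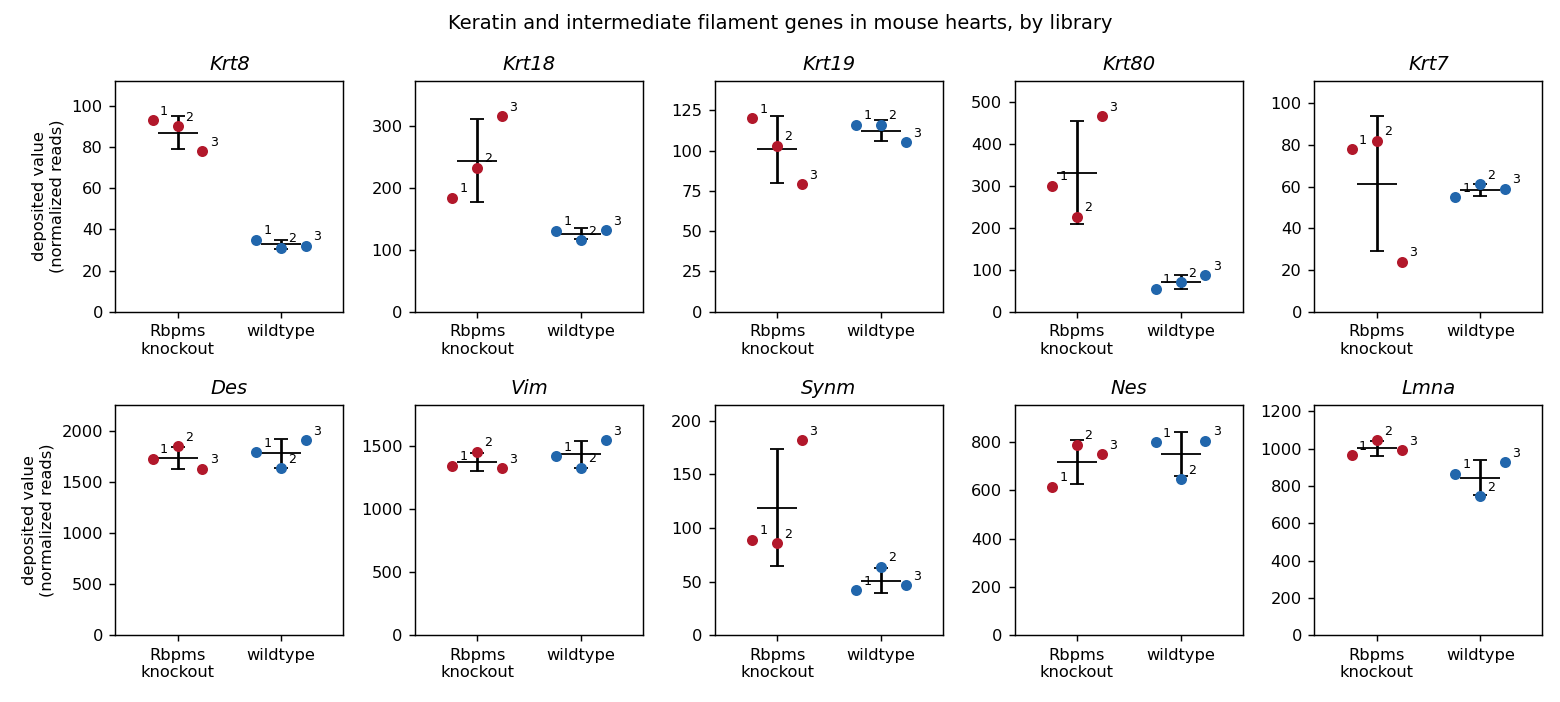
Deposited value (reads times a library factor) of each of the 10 genes, Rbpms knockout on the left and wildtype on the right of each panel. Points are libraries numbered by replicate, and the bar and whiskers are the mean and SD (n = 3). Krt8, Krt18, Krt80, Synm and Lmna show no overlap between groups, and Krt7 and Krt19 are lowest in knockout replicate 3.

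Krt8, the type II chain of the simple epithelial keratin pair, had values of 93, 90 and 78 in knockout hearts, against 35, 31 and 32 in wildtype hearts. All 3 knockout libraries lay far above the highest wildtype library. It averaged 87.0 ± 7.94 in knockout and 32.7 ± 2.08 in wildtype hearts (SD, n = 3 each), a difference of 1.38 on the log2 scale with an SE of 0.17 (limma, adjusted p = 0.0202), or 2.61-fold. These values rest on an estimated 99, 87 and 92 recovered reads in the knockout and 34, 32 and 27 in the wildtype libraries. Some values under 400 could come from several read numbers. These were 11.26% and 30.56% in knockout replicates 1 and 3 and 6.61% in wildtype replicate 2. The adjusted p was 0.0873 without knockout replicate 1, and 0.122, 0.0974 and 0.143 without wildtype replicates 1, 2 and 3, while the log2 fold change stayed between 1.29 and 1.51 over 19 alternatives. With the replicate number as a block it was 0.0767. A pseudogene named Krt8-ps is annotated in GENCODE M21, and reads shared with it would leave the value of Krt8 uncertain.

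Krt18 is the type I partner of Krt8, and the chains stabilise each other as heteropolymers. Its values were 184, 233 and 316 in knockout hearts, against 131, 116 and 132 in wildtype hearts. The groups did not overlap, and the knockout libraries spread more widely than the wildtype ones, with replicate 3 highest. The means were 244 ± 66.7 in knockout and 126 ± 8.96 in wildtype hearts (SD, n = 3 each), with a log2 fold change of 0.91 and an SE of 0.18 (limma, adjusted p = 0.058), or 1.88-fold, which did not pass the threshold. Without knockout replicate 3 the log2 fold change was 0.71 and the adjusted p 0.00737, and with a term for library sex these were 0.91 and 0.0261. Without both libraries that expressed Xist they were 0.74 and 0.0275, and with no filter on low values 0.91 and 0.0385.

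Krt8 and Krt18 lie next to each other on chromosome 15 of mm39, Krt8 from 101905133 to 101912917 on the reverse strand and Krt18 from 101936615 to 101940462 on the forward strand, 23.7 kb apart. Their starts are shown because the pair is divergent and both genes were higher in every knockout library, as is that of Synm, which was also higher in every knockout library. The sequences are from RefSeq on GRCm38.p6, not on the build of the deposited table, and run from 250 bases before to 50 bases after the annotated start, 5′ to 3′ on the gene's strand. Capitals mark matches on either strand to TATAAA (the core promoter box), GGGCGG (the GC-rich box), CANNTG (the E-box), CCAAT (the box of that name), TGANTCA (AP-1) or CATTCC (TEAD), some of which overlap. The windows are chr15:102004293-102004592 (Krt8, reverse strand), chr15:102027966-102028265 (Krt18, forward strand) and chr7:67759693-67759992 (Synm, reverse strand).
Krt8: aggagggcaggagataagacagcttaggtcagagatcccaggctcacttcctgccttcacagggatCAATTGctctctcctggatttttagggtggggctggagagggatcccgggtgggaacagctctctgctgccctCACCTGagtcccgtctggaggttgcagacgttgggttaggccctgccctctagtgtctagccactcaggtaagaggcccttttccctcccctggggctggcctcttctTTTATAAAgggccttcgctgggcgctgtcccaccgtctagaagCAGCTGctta
Krt18: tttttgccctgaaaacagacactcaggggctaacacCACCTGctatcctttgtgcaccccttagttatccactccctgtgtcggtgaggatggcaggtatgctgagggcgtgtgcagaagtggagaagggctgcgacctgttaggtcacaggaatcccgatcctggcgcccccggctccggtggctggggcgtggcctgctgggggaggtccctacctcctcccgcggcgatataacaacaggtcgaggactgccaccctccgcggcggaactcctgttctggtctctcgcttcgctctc
Synm: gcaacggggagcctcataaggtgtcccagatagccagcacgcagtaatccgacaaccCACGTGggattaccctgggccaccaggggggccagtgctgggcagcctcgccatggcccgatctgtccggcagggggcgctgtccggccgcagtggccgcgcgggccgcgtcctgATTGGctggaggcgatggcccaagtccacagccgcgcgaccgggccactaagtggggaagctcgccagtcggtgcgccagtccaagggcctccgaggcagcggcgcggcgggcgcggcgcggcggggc

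The Krt8 window held overlapping TATAAA matches on both strands, beginning 3 and 1 bases before the annotated start, and 3 E-boxes. The Krt18 window held 1 E-box, and the Synm window held 1 E-box and 1 match to CCAAT. Among all 32851 promoter windows of the same table, 13.6% held TATAAA, 72.3% an E-box and 37.4% CCAAT. None of the 3 windows held the AP-1, TEAD or GC-rich box letters, which were found in 7.81%, 14.7% and 35.7% of all windows. The GC content was 58.0%, 61.3% and 72.7% in the Krt8, Krt18 and Synm windows, against a median of 52.7% over all windows. These matches are letters in a window and are not evidence of binding.

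Krt80, a type II keratin of epithelia, had the highest fold change of the 10 genes. Its values were 301, 227 and 467 in knockout hearts, against 55, 71 and 87 in wildtype hearts. The lowest knockout library lay far above the highest wildtype library, and replicate 3 was again the highest. Without replicate 3 the log2 fold change was 1.89 (limma, adjusted p = 0.000561). It averaged 332 ± 123 in knockout and 71.0 ± 16.0 in wildtype hearts (SD, n = 3 each), a difference of 2.17 on the log2 scale with an SE of 0.28 (limma, adjusted p = 0.0242), or 4.49-fold. The adjusted p was 0.0773 by voom on the values and 0.081 by voom on recovered reads, 0.078 without an intensity trend and robust moderation, 0.102 without knockout replicate 1, and 0.138, 0.0974 and 0.143 without wildtype replicates 1, 2 and 3. The lncRNA gene Gm35853 spans Krt80 on the opposite strand and stood at 14, 10 and 19 in knockout hearts, against 5, 7 and 2 in wildtype hearts. The strand setting of the authors' counting was not stated, so reads of this overlapping pair may not be separable.

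Krt7, the type II keratin of glandular and mesothelial cells, lies on chromosome 15 as well, 40.9 kb from Krt80. It had values of 78, 82 and 24 in knockout hearts, against 55, 61 and 59 in wildtype hearts. Knockout replicates 1 and 2 were above and replicate 3 below all wildtype libraries. The log2 fold change was -0.12 (SE 0.44, limma, adjusted p = 0.92), and 0.45 without knockout replicate 3 (adjusted p = 0.156).

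Krt19, a type I keratin of simple epithelia on chromosome 11, was also lowest in knockout replicate 3. Its values were 120, 103 and 79 in knockout hearts, against 116, 116 and 105 in wildtype hearts. Replicate 1 was above the wildtype range, and replicates 2 and 3 were below it. The fitted difference was -0.18 with an SE of 0.17 (limma, adjusted p = 0.648), and -0.01 without knockout replicate 3 (adjusted p = 0.973).

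The low Krt7 and Krt19 values of knockout replicate 3 stood beside low values of mesothelial genes in that library. Upk3b, a uroplakin of mesothelium, and Msln, or mesothelin, were singled out after their values were seen. Upk3b stood at 245, 283 and 79 in knockout hearts, against 294, 313 and 283 in wildtype hearts. Msln stood at 360, 404 and 136 in knockout hearts, against 391, 415 and 350 in wildtype hearts. Both were by far lowest in knockout replicate 3, and Upk3b was below the wildtype range in replicate 1 as well. In replicate 3 Krt8 was at 78 and Krt18 at 316, above every wildtype library.

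Over the 19 tested epicardial and mesothelial markers the median difference from the wildtype mean was 0.10, 0.18 and -0.40 log2 units in knockout replicates 1, 2 and 3, against -0.01, 0.11 and -0.07 in the wildtype libraries. The summed value of all 20 listed markers, 1 of them not tested, was 6621, 6860 and 5349 in the knockout and 6051, 6249 and 6090 in the wildtype libraries. Of these markers 1 rose and 0 fell, the secreted chaperone Clu, at 1047 ± 34.0 in knockout against 833 ± 31.0 in wildtype hearts (SD, n = 3 each; log2 fold change 0.33, limma, adjusted p = 0.0498). Over all tested genes 0.508% were called higher and 0.434% lower. Of the 19 tested markers 4 were higher in every knockout library, against 11.0% of all tested genes. In 1 of the 19 every knockout library was lower, against 10.9%. The markers with the highest values were Ezr, a membrane linker (limma, adjusted p = 0.673), and Podxl, a sialomucin (0.723). Without knockout replicate 2, Aldh1a1 and Tcf21 were called higher and Aldh1a2 lower, where 3.41% of all genes were called. Clu was called in 4 of 19 alternatives. The epicardial transcription factor genes Tcf21 and Wt1 were not low in replicate 3. Tcf21 stood at 383, 340 and 419 in knockout hearts, against 291, 296 and 289 in wildtype hearts (limma, adjusted p = 0.0859). Wt1 stood at 265, 259 and 245 in knockout hearts, against 191, 225 and 218 in wildtype hearts (adjusted p = 0.185), and neither gene's groups overlapped. Tcf21 and Wt1 were singled out after their values were seen. Bnc1 of the same list was lowest in replicate 3. It stood at 36, 55 and 7 in knockout hearts, against 43, 72 and 37 in wildtype hearts. The Krt8 to Upk3b ratio was 0.38, 0.318 and 0.987 in knockout hearts, against 0.119, 0.099 and 0.113 in wildtype hearts. For Krt18 it was 0.751, 0.823 and 4.0 in knockout hearts, against 0.446, 0.371 and 0.466 in wildtype hearts. For Krt7 it was 0.318, 0.29 and 0.304 in knockout hearts, against 0.187, 0.195 and 0.208 in wildtype hearts. The Krt19 to Upk3b ratio overlapped, at 0.49, 0.364 and 1.0 in knockout hearts, against 0.395, 0.371 and 0.371 in wildtype hearts. The part of mesothelial content in Krt7 and Krt19 was not tested.

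**Figure D2:**
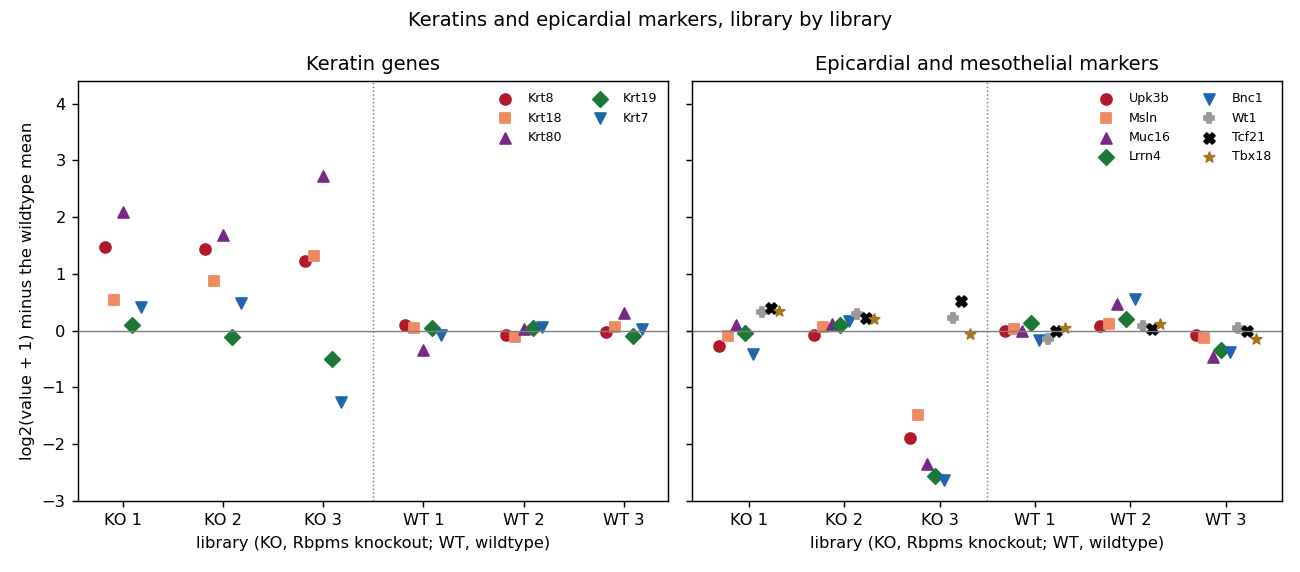
Difference of log2(value + 1) from the wildtype mean in each library, for the 5 keratins on the left and for 8 epicardial and mesothelial markers on the right, with the 3 Rbpms knockout libraries left of the 3 wildtype libraries. In knockout replicate 3, Krt8 was 1.23, Krt18 1.32 and Krt80 2.72 units above the wildtype mean, while Upk3b, Msln, Muc16, Lrrn4 and Bnc1 lay between -1.49 and -2.63. Wt1 was at 0.22, Tcf21 at 0.52 and Tbx18 at -0.06 there. The 8 markers are a selection from the 20 listed and were not chosen by a rule. Over the 19 tested markers the median in that library was -0.40, and 11 were lowest there. Others not shown, such as Aldh1a1, were above every wildtype library there.

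Among markers of other epithelia, the adhesion genes Epcam and Cdh1 had values between 1 and 5 in all 6 libraries. Others were measurable, such as the transcription factor gene Grhl2, at 23, 28 and 17 in knockout hearts, against 58, 18 and 52 in wildtype hearts, and Grhl3, at 39, 40 and 41 in knockout hearts, against 32, 38 and 28 in wildtype hearts. Of 22 listed markers, 17 were in the table and 6 were tested. By limma 0 changed (1 at an unadjusted p under 0.05, and 0 by voom on the values or on recovered reads). Of the 6, 5 had a fold change above 0 and 1 (Grhl2) below, with a median of 0.27 log2 units. In 2 of them every knockout library lay above every wildtype library, against 11.0% of all tested genes, and in 0 below, against 10.9%. The splicing factor gene Esrp2 stood at 22, 16 and 14 in knockout hearts, against 4, 5 and 7 in wildtype hearts. Its log2 fold change was 1.54 (limma, adjusted p = 0.076), and it was called higher without knockout replicate 3. The highest were Spint2, a protease inhibitor also made outside epithelia, at 326 ± 30.2 in knockout against 301 ± 5.86 in wildtype hearts, and Cdh16 at 54.7 ± 10.6 in knockout against 45.7 ± 5.69 in wildtype hearts (SD, n = 3 each). The summed value of all 17 was 573, 504 and 514 in knockout hearts, against 473, 443 and 502 in wildtype hearts. Every knockout sum lay above every wildtype sum, but the lowest knockout and the highest wildtype library lay next to each other. Spint2 made up most of each sum, at 359, 318 and 300 in knockout hearts, against 297, 299 and 308 in wildtype hearts. The part of the 17 markers in the keratin values was not tested.

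The table held 11 further keratin genes, of which 3 passed the filter on low values: Krt10, Krt14 and Krt222. By limma 0 of the 3 changed, 0 had an unadjusted p under 0.05 and 0 changed by voom. Krt14, the type I keratin of basal epidermis, had the smallest p of them, with values of 14, 15 and 3 in knockout hearts, against 9, 20 and 13 in wildtype hearts (adjusted p = 0.682). All 3 had a fitted fold change below 0, with a median of -0.31, and a median in knockout replicate 3 of -1.30 log2 units against the wildtype mean. The other 8 were not tested.

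Desmin is the main intermediate filament of muscle, and Des was the most abundant of the 10 genes. Its values were 1727, 1849 and 1630 in knockout hearts, against 1790, 1632 and 1910 in wildtype hearts. The groups overlapped almost fully. The log2 fold change was -0.03 (SE 0.08, limma, adjusted p = 0.863), and it lay between -0.09 and 0.02 over 19 alternatives. Among 12 cardiomyocyte markers 0 changed by limma or voom (3 of them with a p under 0.05 before adjustment), at a median of -0.10 log2 units, and Myh7 was called higher without knockout replicate 3. The highest of them were the myosin Myh6, at 5060 ± 539 in knockout against 5584 ± 413 in wildtype hearts, and titin (Ttn), at 5230 ± 121 in knockout against 5133 ± 482 in wildtype hearts (SD, n = 3 each).

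Synemin, encoded by Synm, is a large filament protein that assembles only together with desmin or vimentin and links them to costameres. Its values were 89, 86 and 182 in knockout hearts, against 42, 64 and 47 in wildtype hearts. The groups did not overlap, and replicate 3 was well above the other knockout libraries. The means were 119 ± 54.6 in knockout and 51.0 ± 11.5 in wildtype hearts (SD, n = 3 each), a difference of 1.14 on the log2 scale with an SE of 0.30 (limma, adjusted p = 0.121), which did not pass. Without knockout replicate 3 the log2 fold change was 0.79 and the adjusted p 0.0396, and without both libraries with Xist they were 0.66 and 0.168. The ratio of Synm to Des was 0.0515, 0.0465 and 0.112 in knockout hearts, against 0.0235, 0.0392 and 0.0246 in wildtype hearts. Synm is overlapped on the opposite strand by Ttc23, at 239 ± 9.71 in knockout and 246 ± 11.9 in wildtype hearts (SD, n = 3 each).

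Vimentin, encoded by Vim, had values of 1348, 1458 and 1327 in knockout hearts, against 1424, 1332 and 1551 in wildtype hearts. The ranges overlapped, and the log2 fold change was -0.06 (SE 0.07, limma, adjusted p = 0.747). The Vim to Des ratio was 0.781, 0.789 and 0.814 in knockout hearts, against 0.796, 0.816 and 0.812 in wildtype hearts. Of 12 fibroblast markers, 0 changed by limma or voom (2 with a p under 0.05 before adjustment) and the median log2 fold change was -0.08, with the collagens Col3a1 and Col1a1 the highest (adjusted p = 0.52 and 0.655). Of 12 endothelial markers 0 changed by limma or voom (3 of them with a p under 0.05 before adjustment), with a median of 0.14 and the highest values in Cdh5 and Eng (adjusted p = 0.819 and 0.165). Of the endothelial markers 6 were higher in every knockout library, against 11.0% of all tested genes. Without knockout replicate 2 or 3, Emcn was called higher, and among fibroblast markers Mfap5 was called higher without replicate 2 or 3 and Lum lower without replicate 2.

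Nestin, encoded by Nes, is a filament protein of progenitor cells, developing muscle and endothelium that copolymerises with vimentin or desmin. Its values were 616, 789 and 750 in knockout hearts, against 799, 646 and 805 in wildtype hearts. The lowest library of all was in the knockout and the next lowest in the wildtype group, and the log2 fold change was -0.06 (SE 0.12, limma, adjusted p = 0.83). Among 10 tested neural crest, Schwann and neuron markers 0 changed by limma or voom (3 of them with a p under 0.05 before adjustment), and Dbh and Ngfr were called lower without knockout replicate 2. Erbb3, a neuregulin receptor among the highest of them, had an adjusted p of 0.975 (limma). Of 12 smooth muscle and pericyte markers, cells that also carry desmin and vimentin, 1 rose, against 0.508% of all tested genes. It was the pericyte proteoglycan Cspg4 (log2 fold change 0.43, limma, adjusted p = 0.0472). The highest of that list, Abcc9 and Rgs5, had adjusted p = 0.403 and 0.989. Of the 12, 5 were lower in every knockout library, against 10.9% of all tested genes, and 2 were higher in every one, against 11.0%. Myh11 was called lower, beside Cspg4, with no filter on low values, with a term for library sex and without knockout replicate 2 or 3. The same held without both libraries with Xist. Of the 12, 0 were called by voom, with a minimum mean value of 20, equal totals, quantile normalization or a replicate block. It was also 0 without trend and robust moderation, and without knockout replicate 1 or any wildtype replicate.

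Lmna encodes lamins A and C of the nuclear lamina. Its values were 965, 1047 and 993 in knockout hearts, against 865, 744 and 927 in wildtype hearts. Every knockout library was above every wildtype library. The means were 1002 ± 41.7 in knockout and 845 ± 93.1 in wildtype hearts (SD, n = 3 each), and the log2 fold change of 0.25 had a standard error of 0.09 (limma, adjusted p = 0.196) and did not pass in any of 19 alternatives. Lmnb1, a B-type lamin, had values of 379, 463 and 449 in knockout hearts, against 546, 455 and 577 in wildtype hearts (log2 fold change -0.29, adjusted p = 0.23). The ratio of Lmna to Lmnb1 within a library was 2.55, 2.26 and 2.21 in knockout hearts, against 1.58, 1.64 and 1.61 in wildtype hearts, without overlap. That ratio and those above were chosen after the values were seen, and they carry no test.

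**Figure D3:**
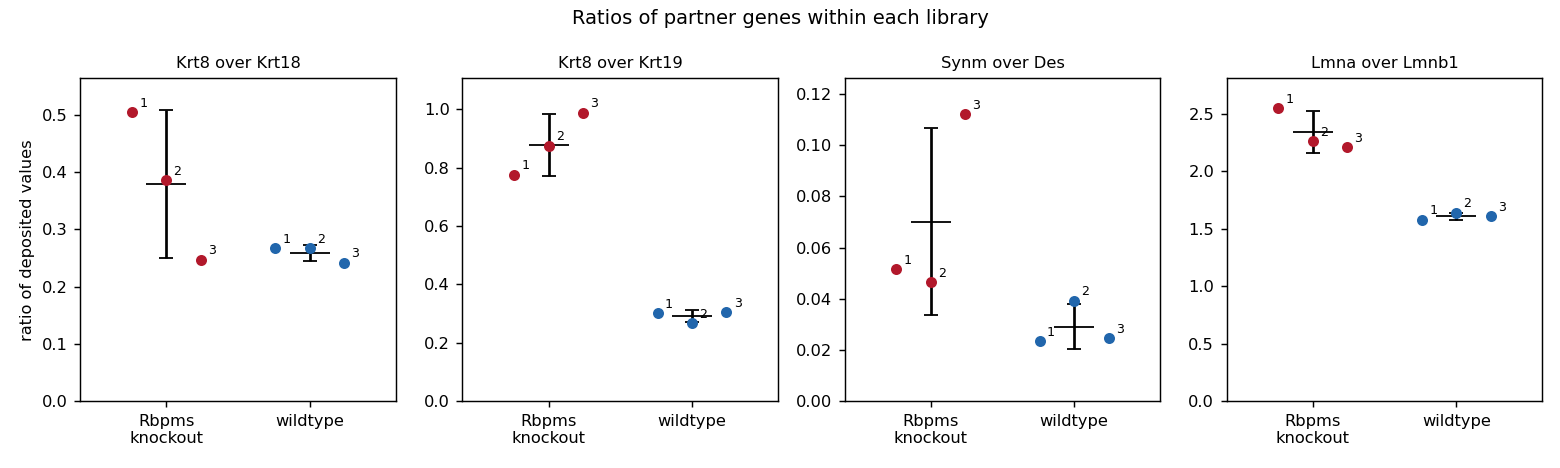
Ratios of deposited values within each library for 4 pairs of filament genes, Rbpms knockout left of wildtype in each panel, with points numbered by replicate and the mean and SD (n = 3). The Krt8 to Krt19, Synm to Des and Lmna to Lmnb1 ratios are higher in every knockout library, and the Krt8 to Krt18 ratio of knockout replicate 3 (0.247) lies within the wildtype range of 0.242 to 0.267.

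The ratio of Krt8 to Krt18 was 0.505, 0.386 and 0.247 in knockout hearts, against 0.267, 0.267 and 0.242 in wildtype hearts. Both partners were higher in all knockout libraries, but not in a fixed proportion. Krt8 was lowest and Krt18 highest of the knockout libraries in replicate 3. The ratio of Krt8 to Krt19 was 0.775, 0.874 and 0.987 in knockout hearts, against 0.302, 0.267 and 0.305 in wildtype hearts, and these did not overlap.

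**Figure D4:**
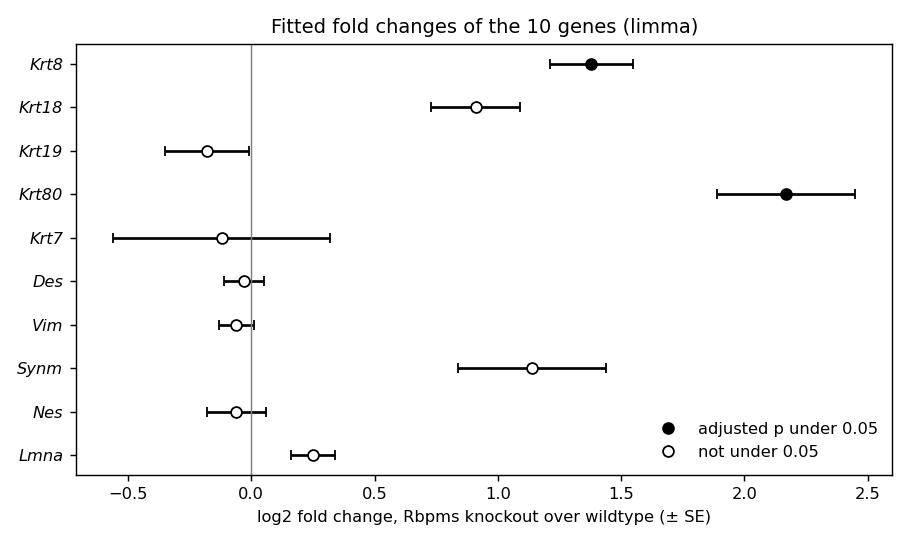
Fitted log2 fold change of each gene in Rbpms knockout over wildtype hearts with its standard error (limma, 3 libraries a group), filled where the adjusted p was under 0.05. Krt80 (2.17) and Krt8 (1.38) are filled, and Synm, Krt18 and Lmna lie above 0 with open symbols.

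Levels were compared between genes as reads per kilobase of exon per 1e6 recovered reads, with exon lengths of another build matched by gene identifier. In wildtype hearts the order ran from Des (97.2 ± 6.95) and Vim (62.2 ± 4.30) through Lmna (29.7 ± 3.08), Nes (24.0 ± 2.78), Krt18 (18.1 ± 1.24) and Krt19 (12.4 ± 0.779) to Krt8 (3.42 ± 0.268), Krt80 (2.28 ± 0.50), Krt7 (1.70 ± 0.0896) and Synm (1.32 ± 0.308; all SD, n = 3). Neighbours in this order did not overlap between libraries, except Krt80 with Krt7 and Krt7 with Synm. In knockout hearts Krt18 stood at 34.4 ± 9.35, a range that overlapped that of Lmna at 34.7 ± 1.30, and above Nes at 22.7 ± 2.78. Krt80 (10.5 ± 3.88) and Krt8 (9.01 ± 0.815) overlapped the range of Krt19 (11.0 ± 2.27) there through replicate 3. In replicates 1 and 2 Krt8 (9.64 and 9.31) and Krt80 (9.57 and 7.18) lay below Krt19 (13.2 and 11.2). Synm at 3.04 ± 1.39 and Krt7 at 1.76 ± 0.932 overlapped as well.

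**Figure D5:**
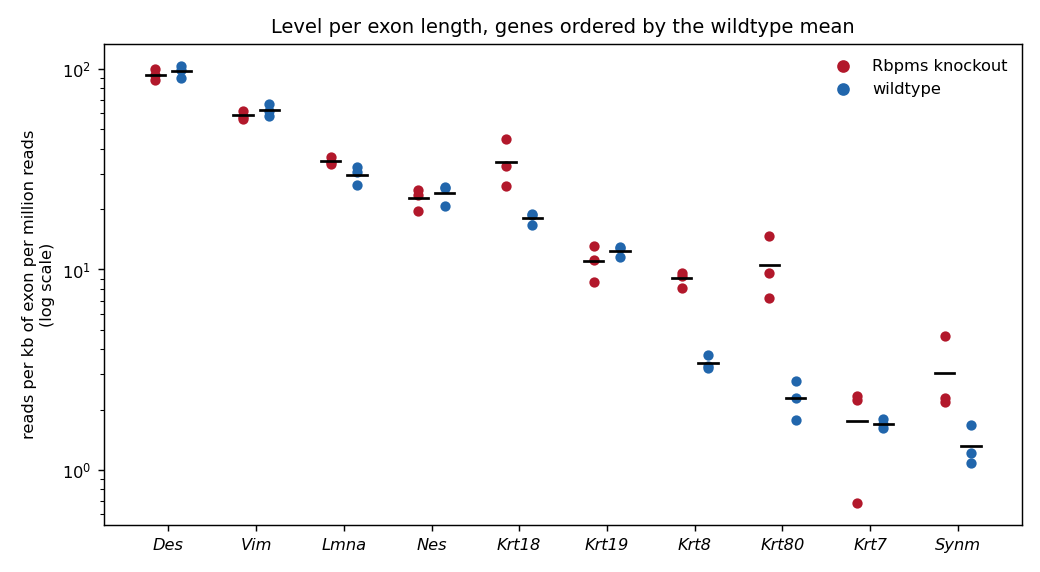
Reads per kilobase of exon per 1e6 recovered reads on a log scale, genes ordered by the wildtype mean, with Rbpms knockout libraries left of wildtype libraries and bars at the means. Des and Vim are highest in both groups, and the ranges of Krt8 and Krt80 meet that of Krt19 in knockout hearts through replicate 3.

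Other intermediate filament genes had 7 tested members of 13 listed, and by limma 0 changed, with 2 at an unadjusted p under 0.05 and 0 by voom. The smallest p belonged to Bfsp1, a beaded filament protein best known from the eye lens, at 24, 29 and 21 in knockout hearts, against 41, 44 and 37 in wildtype hearts (log2 fold change -0.71, adjusted p = 0.155). Its groups did not overlap. The list's median was -0.12, with 3 fold changes above and 4 below 0.

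Proteins that tie filaments to desmosomes, hemidesmosomes and the cytoskeleton had 19 tested genes. By limma 0 changed, with 4 at an unadjusted p under 0.05, against 16.4% of all tested genes. By voom 0 changed, and the median log2 fold change was 0.05. Eppk1, or epiplakin, which binds keratin filaments, had the smallest p. It stood at 60, 62 and 100 in knockout hearts, against 27, 36 and 29 in wildtype hearts, without overlap (log2 fold change 1.21, standard error 0.24, limma, adjusted p = 0.057). It was called higher in 5 alternatives, including those without knockout replicate 2 or 3 and with a term for library sex, and Dtna and Dsc2 were each called higher in 1 of these.

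Chaperones and modifiers of filaments had 18 tested genes, with 0 changed by limma, 3 at an unadjusted p under 0.05, 0 by voom and a median of -0.03. Hspb8, a small heat shock protein, had values of 485, 512 and 572 in knockout hearts, against 400, 370 and 401 in wildtype hearts (log2 fold change 0.42, limma, adjusted p = 0.0521). The groups did not overlap, and it was called with no filter on low values, with the term for library sex and in the fits lacking knockout replicate 2 or 3. Lacking replicate 3, Aurkb was called lower. Among 20 partners of the lamina and of the complex that links nucleus and cytoskeleton, 0 changed by limma or voom, with a median of 0.07 and 2 at an unadjusted p under 0.05. Tmpo, a lamina-associated protein, had the smallest p, at 1037, 1016 and 1150 in knockout hearts, against 1212, 1226 and 1247 in wildtype hearts (log2 fold change -0.20, adjusted p = 0.175). It was called lower without knockout replicate 3.

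Of 16 genes of the fetal muscle programme and of muscle stress, 4 rose and 0 fell, against 0.508% and 0.434% of all tested genes. The median log2 fold change was 0.15. Of the 16 fold changes 11 were above and 5 below 0, lowest in Tnnt3 (-0.65) and Acta1 (-0.58). The list was chosen with results known. The 4 were Mybpc2, Xirp2, Ankrd1 and Nppb, with log2 fold changes of 1.39, 1.67, 0.51 and 0.87 (limma, adjusted p = 0.0124, 0.0239, 0.0372 and 0.0472). Xirp2, which binds actin at intercalated discs, stood at 467, 372 and 615 in knockout hearts, against 118, 172 and 162 in wildtype hearts. As in Krt80 and Krt18, knockout replicate 3 was its highest library. In this list 1 gene rose without knockout replicate 1, 4 without replicate 2 and 4 without replicate 3. Over all genes 0.0401%, 3.41% and 4.86% were called in those fits. In the list 0 rose without wildtype replicate 1, 2 or 3, against 0.02%, 0.0% and 0.0%. By voom 2 rose on the values and 1 on recovered reads, against 0.481% and 0.488%. Without trend and robust moderation it was 0, against 0.16%.

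Xirp2 was also the gene whose profile over the 6 libraries was closest to that of Krt80. Only tested genes with a mean value of at least 20 were searched, and predicted gene names were left out. Likeness was the root mean square difference of log2 values after centring each gene, and it carries no test. That difference was 0.289 log2 units, and the next gene was Eya2, a transcriptional coactivator (0.334). Closest to Krt8 were the cation channel gene Trpv4 (0.185) and Prg4, or lubricin (0.208). Trpv4 stood at 72, 82 and 83 in knockout hearts, against 35, 33 and 37 in wildtype hearts. Closest to Krt18 were the growth factor gene Hbegf (0.11) and the sphingomyelin synthase gene Sgms2 (0.116), to Krt19 Pctp (0.046) and F8 (0.047), and to Krt7 Il23a (0.104) and Rassf9 (0.108).

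The keratin genes Krt80, Krt7, Krt8 and Krt18 share a stretch of chromosome 15. Within 500000 bases on either side of the span from Krt80 to Krt18, 29 other genes were tested, a window chosen after the values were seen. By limma 0 of them changed, with 6 at an unadjusted p under 0.05, against 16.4% of all tested genes. Voom was not counted over this window. Of the 29, 10 were higher in every knockout library, against 11.0% of all tested genes, and 2 were lower in every knockout library, against 10.9%. Among the 10 were Gm35853 and Smim41, with log2 fold changes of 1.51 and 1.06 (limma, adjusted p = 0.15 and 0.122). Gm35853 spans Krt80, and its reads may not be separable from those of Krt80. The median log2 fold change of the 29 was 0.01.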

How the data were processed

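The libraries were stranded mRNA of heart, read from one end per the labels' protocols. Tools named in the submitters' processing notes, in no order, were featureCounts 2.0.4, STAR 2.7.11a, DESeq2 1.36.0, Trimmomatic 0.39 and Picard 3.0.0, on build mm39. The unit of the deposited numbers is a score, since the values fit reads scaled by the authors per library and then rounded. Library factors of 0.93714, 1.03841 and 0.85242 (knockout 1, 2 and 3) and 1.04225, 0.95682 and 1.17984 (wildtype 1, 2 and 3), estimated from values under 400, gave the recovered reads.

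Filtering kept genes reaching 10 in 3 or more libraries. They were tested with limma 3.58.1 (R 4.3.3) on log2(value + 1) with trend and robust moderation and no covariate, at a threshold of 0.05. Such fold changes understate those of low genes. The fit was tested on simulated data with the same spread for all genes and no deviating library. That test cannot vouch for the calls in these libraries. The 10 genes, all lists and the naming rule were chosen with earlier results of these data known. The rule names called list members or else the one with the smallest p, and of marker lists also the 2 highest; 1 marker so named is not reported here. Exon lengths came from GENCODE M21 (GRCm38) for 98.2% of tested genes, and promoters from RefSeq for 8 of the 10 genes. The term for library sex and the fit without libraries with Xist were added after the values were seen.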

Additional observations from a re-analysis of the deposited data

How the results depend on the processing

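The 10 genes held 2 calls in the fit described. They held 1 without trend and robust moderation, 1 by voom on the values, 1 by voom on recovered reads and 1 in a replicate block fit, and 0 to 4 when each library was left out in turn, the most when knockout replicate 3 was dropped. With the term for library sex there were 3. Over all genes the calls numbered 141, against 218 with no filter, 88 with a mean value of at least 20, 24 without trend and robust moderation, 72 and 73 by voom on values and on recovered reads, 23 with the replicate block, 223 with the term for library sex and 256 without both libraries with Xist. Leaving out 1 library gave 0 to 727 calls. The cause of these moves was not tested. Without wildtype replicates 2 and 3, where limma called 0 genes, 2176 and 1852 had an unadjusted p under 0.05.

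Fold changes near 0 changed sign. Without both libraries with Xist the log2 fold change was 0.02 for Des, 0.01 for Krt19 and 0.41 for Krt7. With 1 library left out it ran from -0.09 to 0.02 for Des, from -0.42 to 0.45 for Krt7 and from -0.17 to 0.04 for Nes. Krt8, Krt18, Krt80, Synm and Lmna stayed above 0 in all 19 alternatives.

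Libraries with the same number did not deviate together (correlations of deviations -0.17, -0.11 and -0.13 for numbers 1, 2 and 3), and 0 of the 3 knockout libraries correlated best with the wildtype library of its own number. With about 30 recovered reads for Krt8 in each wildtype library, counting error alone limits the precision of its level.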
